A study of Mus musculus with 4 samples.

Results

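The NRF2 pathway and the glutathione system it serves were examined through 10 genes, chosen by symbol: Nfe2l2, Keap1, Nqo1, Hmox1, Slc7a11, Gclc, Gclm, Txnrd1, Srxn1 and Gsta4. Each symbol matched 1 row among the 38713 genes of the expression table. All 10 passed the filter on low values and were among the 12998 genes tested. RNA was measured by sequencing in 4 established cell lines, each grown in culture from a mammary tumor of a C57BL/6 mouse. In the mice that gave the 2 JNK_WT lines (replicates 1 and 2), Wap-Cre, a recombinase driven by the Wap promoter of mammary epithelium, deleted floxed Trp53, the gene for p53. In the mice that gave the 2 JNK_KO lines (replicates 1 and 3), the same recombinase deleted, besides Trp53, floxed alleles of Mapk8 (kinase JNK1) and of Mapk9 (kinase JNK2). Loss of Trp53 was therefore common to all 4 lines, and the comparison asked what the additional loss of JNK did to these genes in tumor cells. Expression is given as FPKM, fragments per exon length and per library total, so levels of different genes are compared per length. Whether values were scaled further between libraries was not given in the sources used here.

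NRF2, the protein of Nfe2l2, is a transcription factor that switches on genes for the removal of oxidants and reactive chemicals. Under low stress KEAP1 holds it and delivers it to a CUL3 ubiquitin ligase for destruction. Oxidants and electrophiles modify KEAP1, and NRF2 then accumulates, pairs with small MAF proteins and binds antioxidant response elements in its target genes. Since this control acts on the protein, the mRNA of Nfe2l2 does not by itself report NRF2 activity. The targets examined detoxify quinones and heme, supply and build glutathione, reduce oxidised thiols and conjugate glutathione to reactive lipids.

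The letters through which NRF2 reads its targets were looked for in promoter sequence, because 8 of the 10 genes are taken as its targets. RefSeq promoter windows (GRCm38.p6, 250 bases before to 50 after a transcription start) were at hand for 7 members, with 9 windows in all because Txnrd1 has 3 starts. The core of the antioxidant response element, written TGACNNNGC, occurred on either strand in 4 of these 9 windows, including that of Nfe2l2. It occurred in 22 of 133 windows of the pathway genes followed below and in 12.4% of the 32851 windows of all genes. The AP1 element TGACTCA, which is bound by the JUN and FOS proteins downstream of JNK, occurred in 1 of the 9 windows and in 5.20% of all windows. Searched without further context, such letters describe a window and do not show that a factor binds there. Stretches with matches before the start are printed below on the strand of the gene, with the match in capitals.
Gclm (minus strand match, chr3:122245397-122245457): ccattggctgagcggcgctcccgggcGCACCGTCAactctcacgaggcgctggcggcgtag
Txnrd1, at the second of its starts (minus strand match, chr10:82859088-82859148): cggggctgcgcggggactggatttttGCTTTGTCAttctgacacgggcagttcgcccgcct
Nfe2l2 (plus strand match, chr2:75704869-75704913): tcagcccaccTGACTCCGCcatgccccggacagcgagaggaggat
Srxn1, with 2 AP1 matches (minus strand, chr2:152105412-152105495): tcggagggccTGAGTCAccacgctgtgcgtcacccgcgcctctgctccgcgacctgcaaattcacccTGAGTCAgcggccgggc
Counted from the transcription start, with negative positions before it, the matches began at -134 in Gclm, -92 in Txnrd1 and -240 in Nfe2l2. The bases after the RefSeq start of Nfe2l2, unlike those of the others, matched no transcript of the annotation used for positions. Such a match does not show that the others are transcript starts. In Srxn1 the AP1 matches began at -102 and -45, and its match to TGACNNNGC began at 29, after the start. The AP1 match at -45 is followed by gc, and together these letters differ from TGACNNNGC only by a G in place of the C after TGA. Letters with that G were not searched. The windows of Keap1, Nqo1 and Slc7a11 held neither set of letters. Hmox1, Gclc and Gsta4 were not searched.

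The libraries were comparable in scale. FPKM summed to between 775960 and 921595 per library, their upper quartile over tested genes between 33.2 and 34.3 FPKM, and steps in low values placed the sequencing depth of the other 3 libraries at 1.06 to 1.41 times that of JNK_KO replicate 1. Mapk8 was at 23.9 and 19.1 FPKM in the JNK_WT lines, against 4.30 and 4.27 FPKM in the JNK_KO lines. Mapk9 was at 29.7 and 24.3 FPKM in the JNK_WT lines, against 12.6 and 8.66 FPKM in the JNK_KO lines, so both targeted genes followed the labels without reaching 0, with log2 differences of -2.08 and -1.28 (limma adjusted p-values 0.191 and 0.429). At the protein level, the authors did not detect JNK in JNK_KO tumor cells by immunoblot. Trp53, deleted in all lines, was at 1.55 and 4.15 FPKM in the JNK_WT lines, against 5.72 and 4.28 FPKM in the JNK_KO lines. The luminal epithelial markers fixed for the check (9 genes, Krt8 and Epcam among them) summed to 4063 and 3151 FPKM in the JNK_WT lines, against 1313 and 2781 FPKM in the JNK_KO lines, and none was under 1 FPKM throughout. All 5 endothelial and all 5 adipocyte markers were under 1 FPKM in every library, as were 6 of 9 macrophage and leukocyte markers, Ptprc and Adgre1 among them. The summed level of that last list, 34.1 and 237 FPKM in the JNK_WT lines, against 129 and 149 FPKM in the JNK_KO lines, was mostly Cd14 except in JNK_WT replicate 1, where Cd68 (19.9 FPKM) exceeded Cd14 (11.9 FPKM). The 8 fibroblast markers summed to 11.8 and 1.73 FPKM in the JNK_WT lines, against 108 and 178 FPKM in the JNK_KO lines, mostly through Dcn. The 7 basal markers summed to 25.9 and 732 FPKM in the JNK_WT lines, against 37.9 and 375 FPKM in the JNK_KO lines, with Myh11 and Oxtr under 1 FPKM throughout.

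All 10 genes were expressed in every line. Averaged over the 4 libraries, the order of levels was Txnrd1 (110 FPKM), Gclm (81.9 FPKM), Nfe2l2 (47.0 FPKM), Hmox1 (38.4 FPKM), Gsta4 (35.2 FPKM), Srxn1 (24.1 FPKM), Gclc (19.5 FPKM), Keap1 (18.3 FPKM), Nqo1 (16.8 FPKM) and Slc7a11 (12.0 FPKM). Only Gclm and Nfe2l2 were neighbours in this order whose ranges over the libraries did not overlap. The genes also differed in how much they varied between lines. The highest library was 1.06 times the lowest for Keap1 and 1.21 times for Nfe2l2, against 3.42 times for Nqo1 and 5.63 times for Gsta4.

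**Figure D1:**
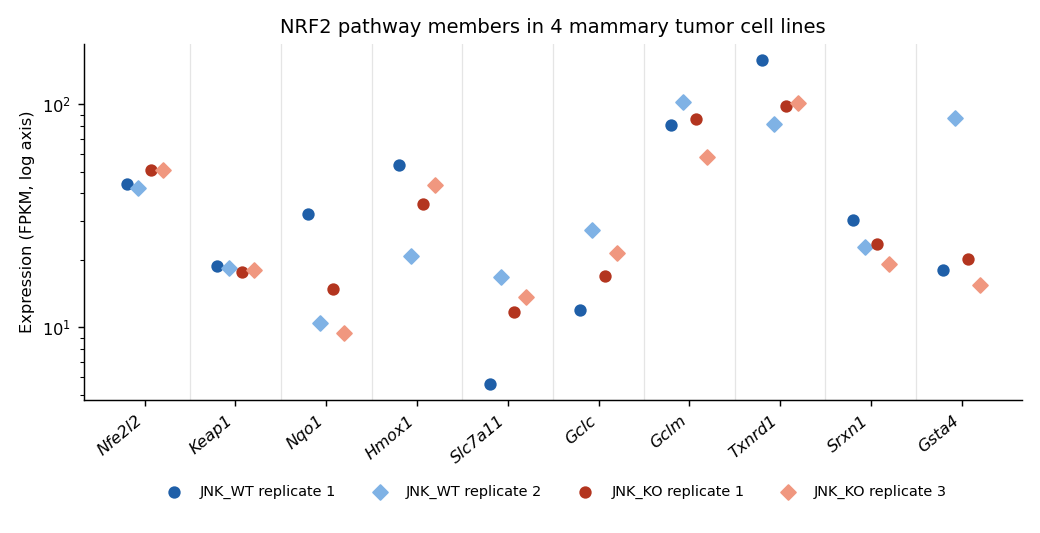
Expression of the 10 genes in FPKM on a log axis, with 1 point per library. Nfe2l2 and Keap1 are nearly level across the 4 lines, while Nqo1, Slc7a11 and Gsta4 are spread mainly by the 2 JNK_WT lines.

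The pair that controls the pathway was the steadiest. Nfe2l2 (mm10 chromosome 2, 75675513 to 75704641, minus strand) was measured at 44.1 FPKM (replicate 1) and 42.2 FPKM (replicate 2) among JNK_WT lines, against 50.9 FPKM (replicate 1) and 50.8 FPKM (replicate 3) among JNK_KO lines, an order kept from here on. Both JNK_KO lines lay above both JNK_WT lines, at 1.18 times their mean, the means being 43.1 ± 1.33 FPKM for JNK_WT and 50.8 ± 0.0489 FPKM for JNK_KO (SD, n = 2 each). On the log2(FPKM + 1) scale, on which all differences here are given as JNK_KO minus JNK_WT, this was 0.23 (SE 0.22, 95% interval -0.34 to 0.81), and limma gave it an adjusted p-value of 0.968 across the genes tested. Keap1 (chromosome 9, 21229730 to 21239361, minus strand) had values of 18.9 and 18.5 FPKM in the JNK_WT lines, against 17.8 and 18.0 FPKM in the JNK_KO lines. These values also did not overlap, with the JNK_KO lines lower by a log2 difference of -0.06 (95% interval -0.70 to 0.59, limma adjusted p-value 0.999). In bulk RNA, fewer cells that express a gene and less RNA per cell cannot be told apart, here and in all results that follow.

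Nqo1 and Hmox1 were each highest in JNK_WT replicate 1. NQO1 reduces quinones by a transfer that avoids reactive intermediates, and is a common marker of NRF2 activity. Nqo1 (chromosome 8, 107388225 to 107403206, minus strand) had values of 32.3 and 10.5 FPKM in the JNK_WT lines, against 14.8 and 9.46 FPKM in the JNK_KO lines. JNK_WT replicate 1 stood apart at 3.09 times replicate 2, and the JNK_WT replicate 2 value lay between the JNK_KO values. The log2 difference was -0.60 (SE 0.61, limma adjusted p-value 0.978), and it was 0.17 with JNK_WT replicate 1 left out and -1.37 with replicate 2 left out. Hmox1 encodes heme oxygenase 1, which opens the heme ring and frees its iron, and it is also under the control of the repressor BACH1. It (chromosome 8, 75093621 to 75100589, plus strand) had values of 53.4 and 21 FPKM in the JNK_WT lines, against 35.7 and 43.5 FPKM in the JNK_KO lines. The JNK_KO values lay inside the range of the JNK_WT values. Its log2 difference was 0.23 (SE 0.50, limma adjusted p-value 0.999), and it was -0.43 without JNK_WT replicate 2.

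The genes that supply glutathione stood the other way, highest in JNK_WT replicate 2. SLC7A11 is the transporter subunit that brings cystine into the cell, and the enzyme of GCLC, the catalytic subunit, and GCLM, its modifier, makes the first and limiting step of glutathione synthesis. Slc7a11 (chromosome 3, 49892526 to 50443614, minus strand) had values of 5.57 and 16.9 FPKM in the JNK_WT lines, against 11.7 and 13.6 FPKM in the JNK_KO lines. Gclc (chromosome 9, 77754535 to 77794485, plus strand) had values of 12.0 and 27.4 FPKM in the JNK_WT lines, against 17.0 and 21.6 FPKM in the JNK_KO lines. For both genes the JNK_KO values lay inside the JNK_WT range, whose upper end was 3.04 times the lower for Slc7a11 and 2.28 times for Gclc. Their log2 differences were 0.33 with an SE of 0.55 and 0.07 with an SE of 0.46 (limma adjusted p-value 0.999 for both), and without JNK_WT replicate 1 they were -0.39 and -0.49. Without JNK_KO replicate 3 the Gclc difference was -0.09. Gclm (chromosome 3, 122245557 to 122270732, plus strand), whose promoter letters are printed above, was at 81.0 and 102 FPKM in the JNK_WT lines, against 86.1 and 58.1 FPKM in the JNK_KO lines. Unlike the other 2 glutathione genes, its lowest value was in JNK_KO replicate 3. Gclm had a log2 difference of -0.36 (SE 0.30, limma adjusted p-value 0.949), which was -0.08 without that library and -0.64 without JNK_KO replicate 1. Gclm exceeded Gclc in every library. In the annotation a processed pseudogene and a noncoding transcript of the opposite strand overlap Gclm, and antisense transcripts overlap Slc7a11 and Keap1. Whether reads were counted by strand was not given in the sources used here, so reads from opposite strands cannot be told apart.

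Txnrd1 and Srxn1 again were highest in JNK_WT replicate 1. TXNRD1 is the selenoenzyme that uses NADPH to reduce thioredoxin, and SRXN1 restores peroxiredoxins whose cysteine has been overoxidised. Txnrd1 (chromosome 10, 82833951 to 82897712, plus strand) had values of 158 and 81.7 FPKM in the JNK_WT lines, against 98.3 and 101 FPKM in the JNK_KO lines. The JNK_KO lines agreed closely, with 99.9 ± 2.25 FPKM against 120 ± 53.8 FPKM in JNK_WT cells (SD, n = 2 each), and both lay inside the JNK_WT range. The log2 difference was -0.18 (SE 0.38, limma adjusted p-value 0.999), and it was 0.29 without JNK_WT replicate 1. Eid3 lies within the Txnrd1 locus on the same strand. Srxn1 (chromosome 2, 152105516 to 152111376, plus strand) had values of 30.4 and 22.9 FPKM in the JNK_WT lines, against 23.6 and 19.3 FPKM in the JNK_KO lines. The groups overlapped by a narrow margin, JNK_KO replicate 1 being just above JNK_WT replicate 2. The log2 difference was -0.29 (SE 0.28, limma adjusted p-value 0.973), negative in every fit that left out 1 library, from -0.49 to -0.10.

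Gsta4 varied most. GSTA4 is an alpha class glutathione S-transferase that conjugates glutathione to 4-hydroxynonenal, a reactive product of lipid peroxidation. Gsta4 (chromosome 9, 78182774 to 78209349, plus strand) had values of 18.1 and 87.1 FPKM in the JNK_WT lines, against 20.2 and 15.5 FPKM in the JNK_KO lines. A single line, JNK_WT replicate 2, was high, at 4.80 times JNK_WT replicate 1, and the other 3 lines were close to each other. The log2 difference of -1.14 (SE 0.78, limma adjusted p-value 0.905) was the largest of the 10, and it was -0.03 with JNK_WT replicate 2 left out and -2.24 with replicate 1 left out. The related genes Gsta1 and Gsta2 were under 1 FPKM in every library and Gsta3 did not exceed 2.43 FPKM.

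The 8 target genes thus fell into 2 sets by the JNK_WT line in which they were highest, a grouping made after the values were seen. Nqo1, Hmox1, Txnrd1 and Srxn1 were highest in JNK_WT replicate 1, at 3.09, 2.55, 1.93 and 1.32 times replicate 2. Slc7a11, Gclc, Gclm and Gsta4 were highest in JNK_WT replicate 2, at 3.04, 2.28, 1.26 and 4.80 times replicate 1. No target was highest in a JNK_KO line. Between the JNK_WT lines 6 of the 10 members had an absolute log2 difference over 0.75, where 27.5% of all genes tested did, and the median absolute difference was 1.03 for the members and 0.43 for all genes. Between the JNK_KO lines 0 of the 10 passed 0.75, where 18.5% of all genes did, and the medians were 0.28 and 0.33. The JNK_WT lines were farther apart than the JNK_KO lines for 9 of the 10 members, Gclm being the exception, and for 7586 of the 12998 genes tested. These are descriptions of single libraries and carry no test. The marker lists also differed between these lines. The summed basal list was higher in JNK_WT replicate 2 than in replicate 1, though Acta2 was lower (3.19 against 7.36 FPKM). The summed luminal list was lower in JNK_WT replicate 2 through Krt8, Krt18, Krt19, Cldn4 and Cdh1. Epcam, Cldn3, Cldn7 and Elf5 of the luminal list were higher there. The part of these markers in the differences between the lines was not tested.

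**Figure D2:**
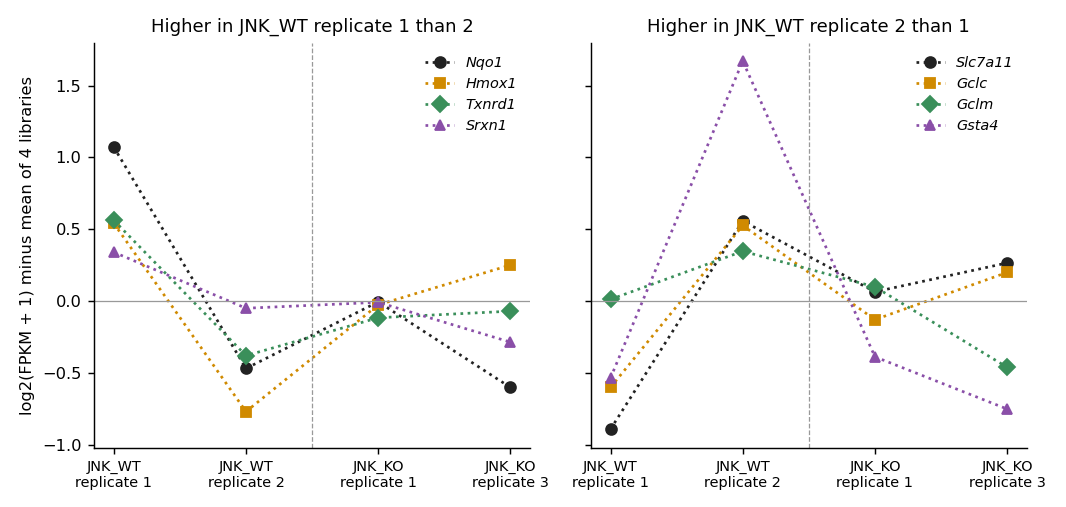
Deviation of each of the 8 target genes from its own mean over the 4 libraries, in log2(FPKM + 1), with dotted lines joining the values of a gene. The genes on the left are highest in JNK_WT replicate 1 and those on the right in JNK_WT replicate 2.

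Between the genotypes the members differed little relative to these spreads. By limma 0 of the 10 genes were called at an adjusted p-value under 0.05 with an absolute log2 difference over 0.75, and 0% of all 12998 genes were. None of the 10 had an unadjusted p-value under 0.05, where 7.63% of all genes did. One member, Gsta4, exceeded 0.75 in size, where 15.7% of all genes did. The groups did not overlap for 2 of the 10, Nfe2l2 being higher and Keap1 lower in JNK_KO cells, where 35.0% of all genes had groups that did not overlap, 18.3% higher and 16.7% lower. The median log2 difference of the 10 was -0.12, beside 0.01 for all genes tested. The intervals were wide for the targets, spanning -2.22 to 1.01 for Nqo1 and -3.21 to 0.94 for Gsta4, with 2 lines per group. With 2 libraries against 2, the smallest p-value an exact permutation test can give is 0.333, so none was run. The members lie on chromosomes 2, 3, 8, 9 and 10, whose tested genes had median differences between -0.05 and 0.12 relative to the median of all genes. The summed fibroblast list was higher and the summed luminal list lower in both JNK_KO lines than in both JNK_WT lines, as given above. Single markers did not all follow. In the luminal list only Krt8 and Epcam had groups that did not overlap. In the fibroblast list Dcn, Pdgfra, Pdgfrb and Thy1 were higher in both JNK_KO lines, while Col1a2 was highest in JNK_WT replicate 1 (10.3 FPKM). The part of these markers in the genotype differences of members and pathway genes was not tested.

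**Figure D3:**
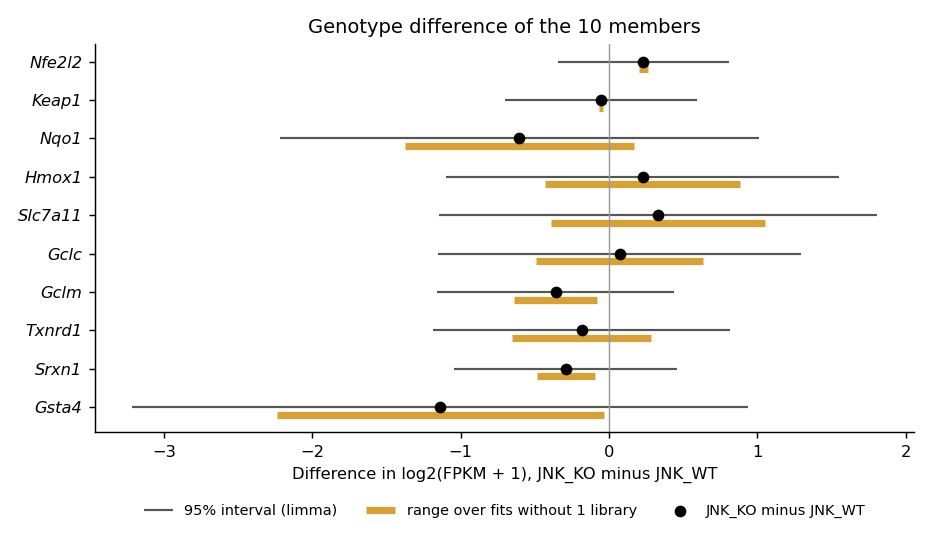
Difference in log2(FPKM + 1) between JNK_KO and JNK_WT cells for the 10 members, with the limma 95% interval (thin line) and the range over the 4 fits that each left out 1 library (thick line). All 10 intervals include 0, and the thick lines cross 0 for Nqo1, Hmox1, Slc7a11, Gclc and Txnrd1.

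Other genes of the pathway were followed in 8 lists of 113 genes, of which 100 were tested. By limma 0 of the 100 were called, and 5 had an unadjusted p-value under 0.05, beside 7.63% of all genes, namely Glrx, Cbs, Fth1 and Ugt1a7c, higher in JNK_KO cells, and Nfe2l3, lower. Of these, Ugt1a7c (log2 difference 1.35, limma adjusted p-value 0.430), which shares exons with other genes of its family, was named after its values were seen. An absolute log2 difference over 0.75 was seen for 16 of the 100 (9 higher and 7 lower in JNK_KO cells), beside 15.7% of all genes. Groups did not overlap for 27 of the 100 (12 higher and 15 lower), beside 35.0% of all genes. The median log2 difference was -0.02. The pathway genes shared the wide spread between the JNK_WT lines, where 42 of 100 exceeded 0.75, beside 27.5% of all genes. Between the JNK_KO lines 18 of 100 did, beside 18.5% of all genes.

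**Figure D4:**
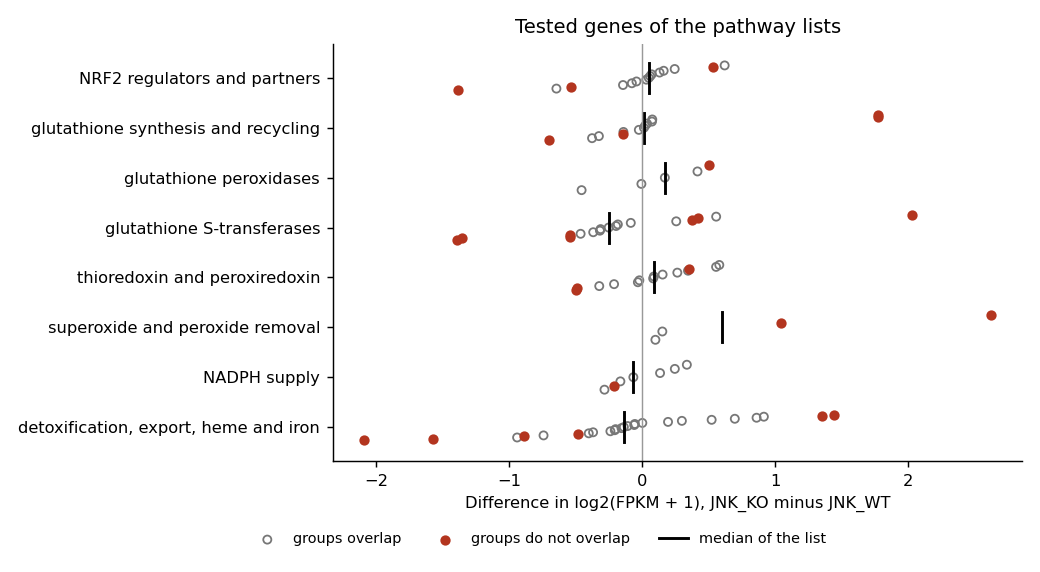
Log2 differences of the 100 tested pathway genes by list, with filled points for genes whose groups do not overlap and a bar at the median of each list. The medians lie between -0.25 and 0.60, the latter over 4 genes, and single genes such as Sod3 and Slc40a1 lie far from them.

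Among regulators and partners of NRF2, groups did not overlap for 3 of 15 genes, beside 35.0% of all genes. Bach1, the repressor that occupies antioxidant response elements and holds Hmox1 down, was at 11.4 and 8.79 FPKM in the JNK_WT lines, against 13.8 and 16.2 FPKM in the JNK_KO lines, a log2 difference of 0.53 (SE 0.29, limma adjusted p-value 0.833). Its relative Bach2 was near 1 FPKM in all lines, with values of 1.17 and 1.56 FPKM in the JNK_WT lines, against 0.568 and 0.694 FPKM in the JNK_KO lines. Bach2 passed the filter on low values only through the JNK_WT lines. Nfe2l3, for the NRF2 relative NRF3, was at 18.9 and 14 FPKM in the JNK_WT lines, against 8.59 and 3.58 FPKM in the JNK_KO lines. Its log2 difference of -1.38 (SE 0.47, limma adjusted p-value 0.589) was -0.85 without JNK_KO replicate 3 and -1.92 without JNK_KO replicate 1. Nfe2l3 is on chromosome 6, whose 591 tested genes had a median difference -0.60 relative to that of all genes, and the part of this in its value was not tested. The small MAF gene Mafg and the ligase gene Cul3 had log2 differences of -0.08 and 0.13, with overlapping groups. Sqstm1, for the autophagy receptor p62 that competes for KEAP1, was abundant, at 463 and 318 FPKM in the JNK_WT lines, against 157 and 382 FPKM in the JNK_KO lines, with a log2 difference of -0.65, which was -0.004 without JNK_KO replicate 1 and -1.29 without JNK_KO replicate 3.

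In glutathione synthesis and recycling, 13 of 16 genes were tested. Groups did not overlap for 4 (2 higher and 2 lower in JNK_KO cells), beside 35.0% of all genes. Glrx, for glutaredoxin, which uses glutathione to remove it again from modified protein thiols, was at 14.9 and 21.9 FPKM in the JNK_WT lines, against 60.4 and 68.3 FPKM in the JNK_KO lines. The JNK_KO mean was 3.50 times the JNK_WT mean, and the gap between the groups was wider than the spread within either. This log2 difference was 1.77 (SE 0.29, limma adjusted p-value 0.249) and lay between 1.51 and 2.03 without 1 library. Cbs and Cth, which turn homocysteine into cysteine in consecutive steps, stood in opposite directions. Cbs was at 1.98 and 2.59 FPKM in the JNK_WT lines, against 7.07 and 14.4 FPKM in the JNK_KO lines (log2 difference 1.77, SE 0.43, limma adjusted p-value 0.432). Cth was at 17.8 and 17.4 FPKM in the JNK_WT lines, against 13.2 and 8.25 FPKM in the JNK_KO lines (log2 difference -0.70, SE 0.33, limma adjusted p-value 0.766; -0.39 without JNK_KO replicate 3). The enzymes that finish and regenerate glutathione were close to level. Gss was between 9.67 and 12.7 FPKM and Gsr between 93.7 and 112 FPKM over the 4 lines, with log2 differences of 0.07 and 0.02. Slc3a2, for the chain that carries SLC7A11 to the membrane, had a log2 difference of -0.02 and, like Slc7a11, was lowest in JNK_WT replicate 1 at 68.2 FPKM and highest in JNK_WT replicate 2 at 100.1 FPKM.

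Of the 5 glutathione peroxidase genes tested, groups did not overlap for Gpx1 alone, beside 35.0% of all genes. Gpx1 was at 207 and 146 FPKM in the JNK_WT lines, against 294 and 208 FPKM in the JNK_KO lines, and the JNK_WT replicate 1 and JNK_KO replicate 3 values were nearly equal. Gpx4, which reduces lipid peroxides in membranes, was at 1252 and 685 FPKM in the JNK_WT lines, against 604 and 755 FPKM in the JNK_KO lines, a log2 difference of -0.46 that was -0.02 with JNK_WT replicate 1 left out and -0.89 with replicate 2 left out. Gpx2, an NRF2 target named here after its values were seen, had the largest difference between the JNK_WT lines of any pathway gene, at 0.743 and 61.0 FPKM, and was at 9.09 and 12.6 FPKM in JNK_KO cells.

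Of the glutathione S-transferases 17 of 23 genes were tested. Groups did not overlap for 7 (3 higher and 4 lower in JNK_KO cells), a share of 41.2% beside 35.0% of all genes. Gstt1 was at 6.58 and 1.32 FPKM in the JNK_WT lines, against 30.7 and 8.24 FPKM in the JNK_KO lines (log2 difference 2.03, SE 0.87, limma adjusted p-value 0.717; 1.14 without JNK_KO replicate 1). Gstm4 was at 20.6 and 5.04 FPKM in the JNK_WT lines, against 4.25 and 2.78 FPKM in the JNK_KO lines, and Gstk1 at 47.5 and 9.07 FPKM against 8.18 and 6.74 FPKM. For both of the latter JNK_WT replicate 1 was far above the other lines, and the log2 differences of -1.36 and -1.39 were -0.44 and -0.26 without it and -2.27 and -2.52 without JNK_WT replicate 2. Gstk1 is also on chromosome 6. Members of these families resemble each other closely, so reads can be assigned to a paralog.

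Of the thioredoxin and peroxiredoxin genes none of 14 exceeded 0.75, beside 15.7% of all genes. Groups did not overlap for 3, beside 35.0% of all genes. These were Sesn2 and Txnrd3, the latter also on chromosome 6, with log2 differences of -0.50 and -0.49, and Prdx3, the mitochondrial peroxiredoxin, with 0.35. Without JNK_WT replicate 1 the values of Sesn2 and Prdx3 were -0.17 and 0.62, and without JNK_WT replicate 2 they were -0.82 and 0.09. Txn1, the substrate of TXNRD1, was at 152 and 351 FPKM in the JNK_WT lines, against 371 and 323 FPKM in the JNK_KO lines, so that its lowest line was the line with the highest Txnrd1. The log2 difference of Txn1 was 0.58 (SE 0.46) and was -0.02 with JNK_WT replicate 1 left out and 1.18 with replicate 2 left out. Prdx1 was between 505 and 718 FPKM over the 4 lines, with a log2 difference of -0.21.

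The superoxide dismutases of mitochondria and of the extracellular space had non-overlapping groups, unlike the cytosolic enzyme and catalase. These were 2 of 4 genes, beside 35.0% of all genes. Sod2 was at 11.3 and 22.3 FPKM in the JNK_WT lines, against 41.4 and 27.7 FPKM in the JNK_KO lines (log2 difference 1.04, SE 0.43, limma adjusted p-value 0.698; 0.58 without JNK_WT replicate 1). Sod3 was at 0.850 and 26.5 FPKM in the JNK_WT lines, against 33.0 and 56.1 FPKM in the JNK_KO lines, and its log2 difference of 2.63 (SE 1.35, limma adjusted p-value 0.814) was 0.68 with JNK_WT replicate 1 left out and 4.57 with replicate 2 left out. Sod1 and Cat had log2 differences of 0.15 and 0.10 with overlapping groups.

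None of the 7 genes that supply NADPH exceeded 0.75, beside 15.7% of all genes. G6pdx, Pgd and Me1 had log2 differences of 0.25, 0.13 and 0.34 with overlapping groups. Taldo1 alone of the 7 had groups that did not overlap, beside 35.0% of all genes. Its values were 138 and 119 FPKM in the JNK_WT lines, against 116 and 106 FPKM in the JNK_KO lines (log2 difference -0.21, SE 0.22). Taldo1 was also the pathway gene nearest to the median of the 8 targets, with a Euclidean distance of 0.15 over the 4 centred log2 values, ahead of Glrx5 at 0.21 and Idh1 at 0.24. That median profile was nearly flat, at 0.18 and 0.15 in the JNK_WT lines and -0.02 and -0.18 in the JNK_KO lines, and it hid the 2 sets of targets described above.

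Genes of detoxification, export, heme and iron had 8 of 25 tested genes over 0.75, 4 higher and 4 lower, a share of 32.0% beside 15.7% of all genes. Groups did not overlap for 6 of the 25 (2 higher and 4 lower), a share of 24.0% beside 35.0% of all genes. Fth1, for the ferritin heavy chain that stores iron and a target of NRF2, was at 2110 and 1616 FPKM in the JNK_WT lines, against 5627 and 4477 FPKM in the JNK_KO lines. The JNK_KO mean was 2.71 times the JNK_WT mean, and the groups were far apart. The log2 difference was 1.44 (SE 0.35, limma adjusted p-value 0.426) and lay between 1.25 and 1.63 without 1 library. Fth1 has processed pseudogenes with which short reads can be shared. Slc40a1, for ferroportin, the exporter of iron, was at 21.3 and 38.3 FPKM in the JNK_WT lines, against 2.33 and 13.4 FPKM in the JNK_KO lines, a log2 difference of -2.09 (SE 0.80, limma adjusted p-value 0.660) that was -1.03 without JNK_KO replicate 1 and -3.15 without JNK_KO replicate 3. The heavy chain of ferritin and the exporter of iron thus had differences of opposite sign, and neither was called. Ftl1, for the light chain of ferritin, was named here after its values were seen. It was at 925 and 348 FPKM in the JNK_WT lines, against 389 and 495 FPKM in the JNK_KO lines. Its groups overlapped, and its log2 difference of -0.37 had the sign of the Slc40a1 difference. Osgin1, another gene induced by NRF2, was at 45.4 and 13.8 FPKM in the JNK_WT lines, against 6.31 and 9.61 FPKM in the JNK_KO lines, a log2 difference of -1.57 (SE 0.63, limma adjusted p-value 0.686) that was -0.75 with JNK_WT replicate 1 left out and -2.40 with replicate 2 left out. Like Nqo1, Osgin1 was highest in JNK_WT replicate 1.

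**Figure D5:**
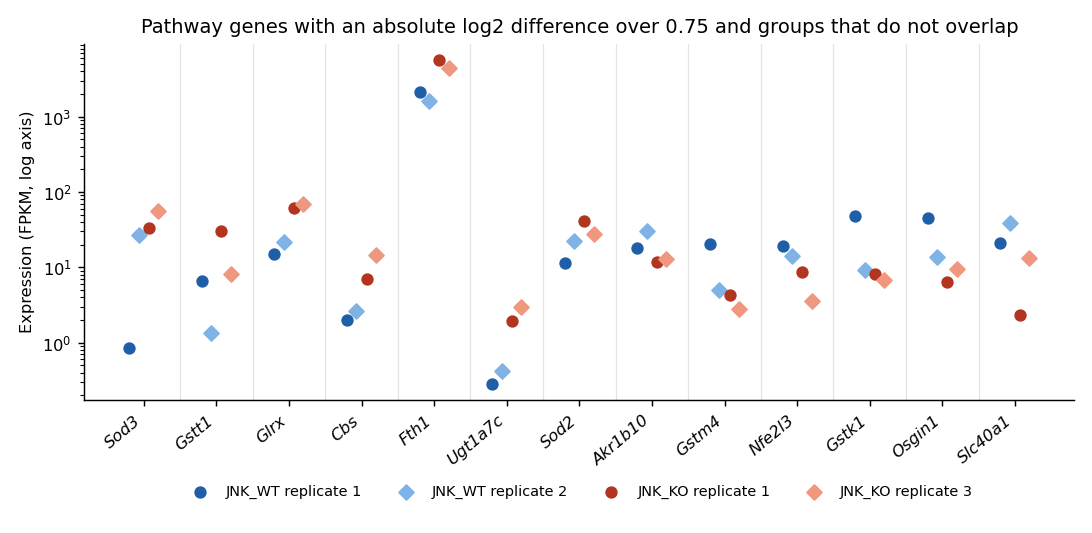
Expression in FPKM on a log axis, with 1 point per library, of the 13 pathway genes with an absolute log2 difference over 0.75 and groups that do not overlap, 7 higher and 6 lower in JNK_KO cells. Akr1b10, on chromosome 6, and Ugt1a7c are shown because they met both criteria. Ugt1a7c passed the filter on low values only through the JNK_KO lines. For Glrx and Fth1 the gap between the genotypes is wide against the spread within each, while for Sod3, Gstk1 and Osgin1 JNK_WT replicate 1 stands apart.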

How the data were processed

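The authors trimmed single-end reads with Trimmomatic, sampled reads with seqtk for comparisons between groups, aligned reads to mm10 with TopHat2 2.0.14 and Bowtie2, and estimated FPKM per gene with Cufflinks 2.2.1 (versions per the labels' processing notes). The deposited FPKM were not pooled. The gene annotation was not given in the sources used here. Of 38741 rows, 27 with symbols turned into dates and 1 without a value were left out. Genes at 1 FPKM or more in at least 2 libraries were tested on log2(FPKM + 1), which understates differences of low genes, by limma 3.58.1 run under R 4.3.3, with its variance prior following mean expression. P-values were two-sided and adjusted by Benjamini-Hochberg across the genes tested. Calls needed an adjusted p-value under 0.05 and an absolute log2 difference over 0.75, the study's thresholds. The fit was tested on simulated data. No read counts were used, so no counting intervals were given. Positions came from GENCODE M21 (GRCm38).

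The members, the pathway and marker lists, and the tests were chosen with earlier results of these data known. Named were all members, the targeted genes, 17 fixed pathway genes, the 3 genes per list with the largest difference among those whose groups did not overlap, and the 3 nearest the median of the targets. Each line gave 1 library, so p-values reflect the spread between lines.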

Additional observations from a re-analysis of the deposited data

How the results depend on the processing

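No paired analysis was possible because JNK_WT and JNK_KO have only replicate number 1 in common. None of the 10 members and none of the pathway genes was called under any alternative run, and the lowest adjusted p-value of a member was 0.851 with all libraries and 0.352 with 1 left out. The count of genes called by limma, 0 (992 at an unadjusted p-value under 0.05), was 10 with a pseudocount of 0.1, 14 with 0.5, 14 without the intensity trend and 25 at an adjusted p-value threshold of 0.1. The remaining settings (filters, scalings, a robust fit, 1 library left out) gave 0. Of the 80 member differences under pseudocounts, filters, scalings and variance models, 0 changed direction. Filters and variance models leave the difference of a gene unchanged by construction, so only the pseudocounts and scalings could have changed a direction.

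Leaving out 1 library changed the direction of 5 members, with ranges of -1.37 to 0.17 for Nqo1, -0.43 to 0.88 for Hmox1, -0.39 to 1.06 for Slc7a11, -0.49 to 0.64 for Gclc and -0.65 to 0.29 for Txnrd1. The median of the 10 members ranged from -0.13 to -0.0692, the number with groups that did not overlap from 2 to 8, and the number of pathway genes over 0.75 from 18 to 28. A group of 1 library overlaps less readily and gives larger differences by construction. The median moved most without JNK_WT replicate 1, and the number of non-overlapping members was 8 without either JNK_WT library and 6 without JNK_KO replicate 1. The lone library of a group was assumed to vary like the other group. Because FPKM hold no read counts, the counting error of values near 1 FPKM, such as those of Bach2, is unknown.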
